A study of Mus musculus with 12 samples.

Results

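The proteasome subunit genes were described across 12 mouse lung libraries from bleomycin-treated and control mice with and without the histone acetyltransferase p300. The genes were those whose symbol is Psma, Psmb, Psmc or Psmd followed by a number, with the interferon-inducible Psmb8, Psmb9 and Psmb10 left out, which gave 36 of the 23238 gene symbols in the files. Of these 36 genes, 35 passed the filter on low counts and were tested, and Psmb11 did not. The Con group was given phosphate-buffered saline (PBS) and the BLM group bleomycin, a DNA-breaking drug that injures the lung epithelium, at 4 mg/kg into the trachea. The groups KO and KOBLM received PBS and bleomycin, respectively, and carried p300 alleles with a loxP-flanked exon 9, deleted in alveolar type II (ATII) cells by a tamoxifen-inducible Cre recombinase under the surfactant protein C promoter (Spc-p300 d/d). The paper's Results describe the Con and BLM mice as Spc-p300 f/f, carrying the same floxed alleles undeleted, the sample labels call them wild type, and the supplementary methods name C57BL/6 mice as the source of sequenced cells beside the knockouts, so that the control genotype is not settled. The labels' protocol gave tamoxifen at 10 mg/kg to mice aged 8 weeks before bleomycin without naming the groups, and the supplementary methods give an age range that begins at 8 weeks. For a separate PCR experiment on isolated ATII cells, Spc-p300 f/f mice were given either vehicle or tamoxifen, and for the sequenced Con and BLM mice neither is named. Each group had 3 libraries, each from RNA of sorted CD74-positive EpCAM-positive cells, and the values of replicates 1, 2 and 3 are given below in that order.

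The proteasome is the large protease that degrades proteins tagged with ubiquitin. Its 20S core is a barrel of alpha rings, which gate the entrance, and beta rings, which hold the proteolytic sites, and its 19S cap binds, unfolds and deubiquitinates the substrate through a base with a ring of ATPases and a lid. Cells make the subunits in matched amounts, and transcription factors of the NFE2L family raise many subunit genes together when proteasome activity is short. ATII cells produce pulmonary surfactant and renew the alveolar epithelium after injury.

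The libraries held 7005005 to 11153154 counts with 6847 to 13838 genes detected, and 3 counts, taken as the detection floor, equalled 0.269 to 0.428 counts per 1000000 (CPM) of the library total, which covers counting error only. The kit yields 1 read near the 3′ end of a transcript, so CPM, here scaled by the TMM factors of edgeR, was compared between genes without a correction for length. Ep300, which encodes p300, lay between 47.4 and 145 CPM in Con and between 92.4 and 184 CPM in the libraries labelled KO. Since the reads come from the 3′ end and the floxed exon lies upstream of it, this level does not check the deletion. The paper checked the deletion by PCR on isolated ATII cells and by staining lungs for p300, and reports the knockout in both. Markers of macrophages summed to more than those of ATII cells in every library. The sums were 1231 to 43979 CPM for 21 macrophage genes and 203 to 2088 CPM for 12 ATII genes. Single ATII genes differed widely in level. Sftpc lay between 0.604 CPM in KOBLM 3 and 617 CPM in Con 2, and Napsa between 37.6 CPM in Con 3 and 319 CPM in BLM 2. Nkx2-1 reached at most 4.31 CPM, in Con 1, and Lpcat1 at most 0.439 CPM, in BLM 2. BLM 3 stood apart, with the fewest genes detected, a sum of 1807 CPM over 10 pluripotency genes against 0.581 to 18.1 CPM in the other 11 libraries, and the lowest sum of macrophage markers. Con 3, KO 3 and KOBLM 2 had 10246, 8790 and 9018 genes detected, the fewest of their groups. Like BLM 3, each of them had the most counts of its group. In bulk RNA of this kind, fewer cells of a type and less RNA per cell cannot be told apart. The main results that rest on BLM 3 are given with and without it.

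Among the 36 genes, Psma7 had the highest mean over the 12 libraries at 298 CPM, followed by Psma2 at 282 CPM, both alpha-ring subunits, and by the beta-ring subunit Psmb1 at 263 CPM. The others lay between, for example Psmd14 at 98.1 CPM in rank 20 of 36. The lowest 3 were Psmd10 at 22.1 CPM, which encodes an assembly chaperone of the 19S base, Psma8 at 2.22 CPM, a testis-restricted variant of an alpha subunit, and Psmb11 at 0.870 CPM, the catalytic subunit of the thymic cortex. Psma8 was above the 3-count floor in 5 libraries, with 47 and 19 counts in Con 1 and Con 2, 71 counts in KO 2 and 33 and 18 counts in KOBLM 1 and KOBLM 3. All 3 BLM libraries had 0 counts of Psma8, which is under the floor, so that its fitted changes depend on the prior count and are not given below. Psma8 is 1 of the 35 genes in the counts and medians below, and without it the medians of the fitted log2 changes were 0.88 in BLM against Con, -0.55 in KOBLM against BLM, 0.45 in KO against Con, 0.014 in KOBLM against KO and -0.86 in the interaction. Psmb11 never exceeded 41 counts. The remaining 34 genes were measured with 2350 to 34511 counts over all libraries.

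The levels of the proteasome subunit genes varied less between libraries of a group than those of most genes. The pooled SD of log2 CPM within groups had a median of 0.57 over the 35 tested genes, against 2.21 over all 13054 tested genes and 0.99 over the 2227 tested genes with a mean between 57.1 and 151 CPM, the quartiles of the 35 genes. Without BLM 3 these medians were 0.54, 1.75 and 0.64. The steadiest gene was the alpha-ring gene Psma3, with an SD of 0.25. Its level was 47.7, 48.6 and 60.8 CPM in Con and 52.3, 79.4 and 47.9 CPM in BLM, and reached 66.5 to 88.0 CPM in KO and 76.8 to 85.4 CPM in KOBLM. The least steady was Psmd10, with an SD of 2.88, which had 0 counts in BLM 3 and 1 count in KOBLM 2 beside 52 to 512 counts in the other 10 libraries.

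The summed level of the 36 genes separated BLM from Con. It was 3282, 3096 and 2941 CPM in Con and 5004, 5116 and 6405 CPM in BLM. The libraries labelled KO had 3620, 4905 and 3759 CPM, and those labelled KOBLM 3689, 3453 and 4633 CPM. Every BLM library was thus above the other 9 libraries, and every Con library was below them all. The BLM mean was 5508 ± 778 CPM and the Con mean 3106 ± 171 CPM (SD, n = 3 each), and without BLM 3 the BLM mean was 5060 CPM. By the total counts of the library in place of TMM, the sums were 3459, 3070 and 3162 CPM in Con and 4920, 4616 and 7978 CPM in BLM.

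**Figure D1:**
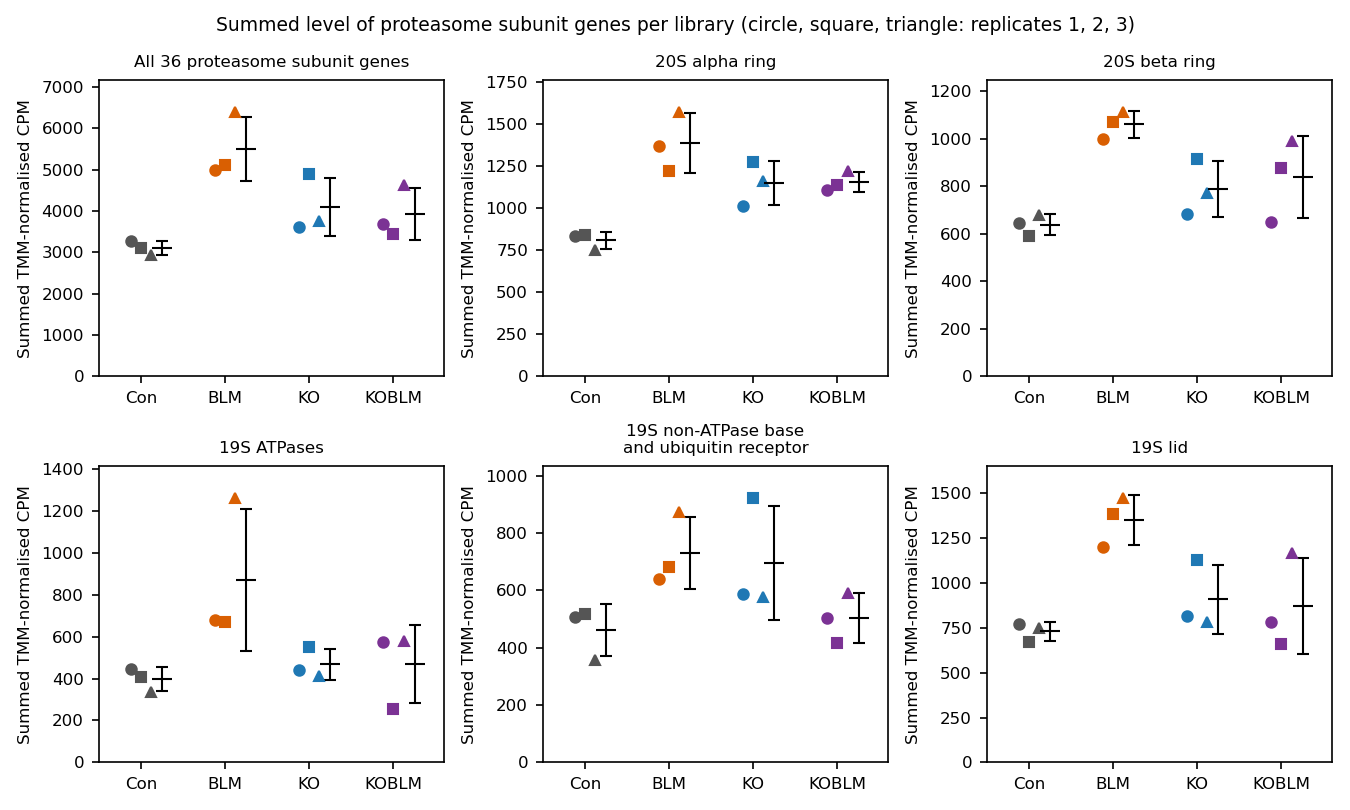
Summed TMM-normalised CPM per library for all 36 proteasome subunit genes and for 5 groups of subunits, with the 3 libraries of each group as points and the mean ± SD (n = 3) as bars beside them. In the sum of all genes the 3 BLM libraries sit between 5004 and 6405 CPM and the 3 Con libraries between 2941 and 3282 CPM.

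BLM was above Con in each part of the complex, by different margins. The alpha ring summed to 835, 840 and 751 CPM in Con and to 1012 CPM or more in each of the other 9 libraries, so that it was above Con in KO and KOBLM as well as in BLM. The beta ring summed to 647, 590 and 680 CPM in Con and 1000, 1069 and 1113 CPM in BLM, and the 6 libraries of KO and KOBLM ranged from 649 to 989 CPM, below BLM and partly within Con. The ATPases summed to 446, 409 and 335 CPM in Con and 679, 668 and 1262 CPM in BLM, where BLM 3 alone was above 1000 CPM. KOBLM 2 had the lowest ATPase sum of the 12 libraries, 254 CPM. The lid summed to 773, 670 and 750 CPM in Con and 1202, 1384 and 1476 CPM in BLM, a separation that did not rest on BLM 3. As shares of the summed level, the alpha ring held 23.8% to 32.9% and the ATPases 7.35% to 19.7%, with KOBLM 2 at the low and BLM 3 at the high end of the ATPases.

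Counted gene by gene, 23, 26 and 26 of the 35 genes were above the highest Con library in BLM 1, BLM 2 and BLM 3. This was 65.7%, 74.3% and 74.3% of the proteasome subunit genes, against 30.7%, 29.5% and 22.3% of all tested genes in the same libraries. In KO the number was 15, 20 and 16, or 42.9%, 57.1% and 45.7%, against 22.3%, 26.1% and 21.1% of all tested genes. In KOBLM it was 15, 16 and 24, or 42.9%, 45.7% and 68.6%, against 28.96%, 23.2% and 26.5%. Below the lowest Con library lay 0 genes in KOBLM 3 and 11 of 35 in KOBLM 2, where 32.7% of all tested genes did so as well.

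**Figure D2:**
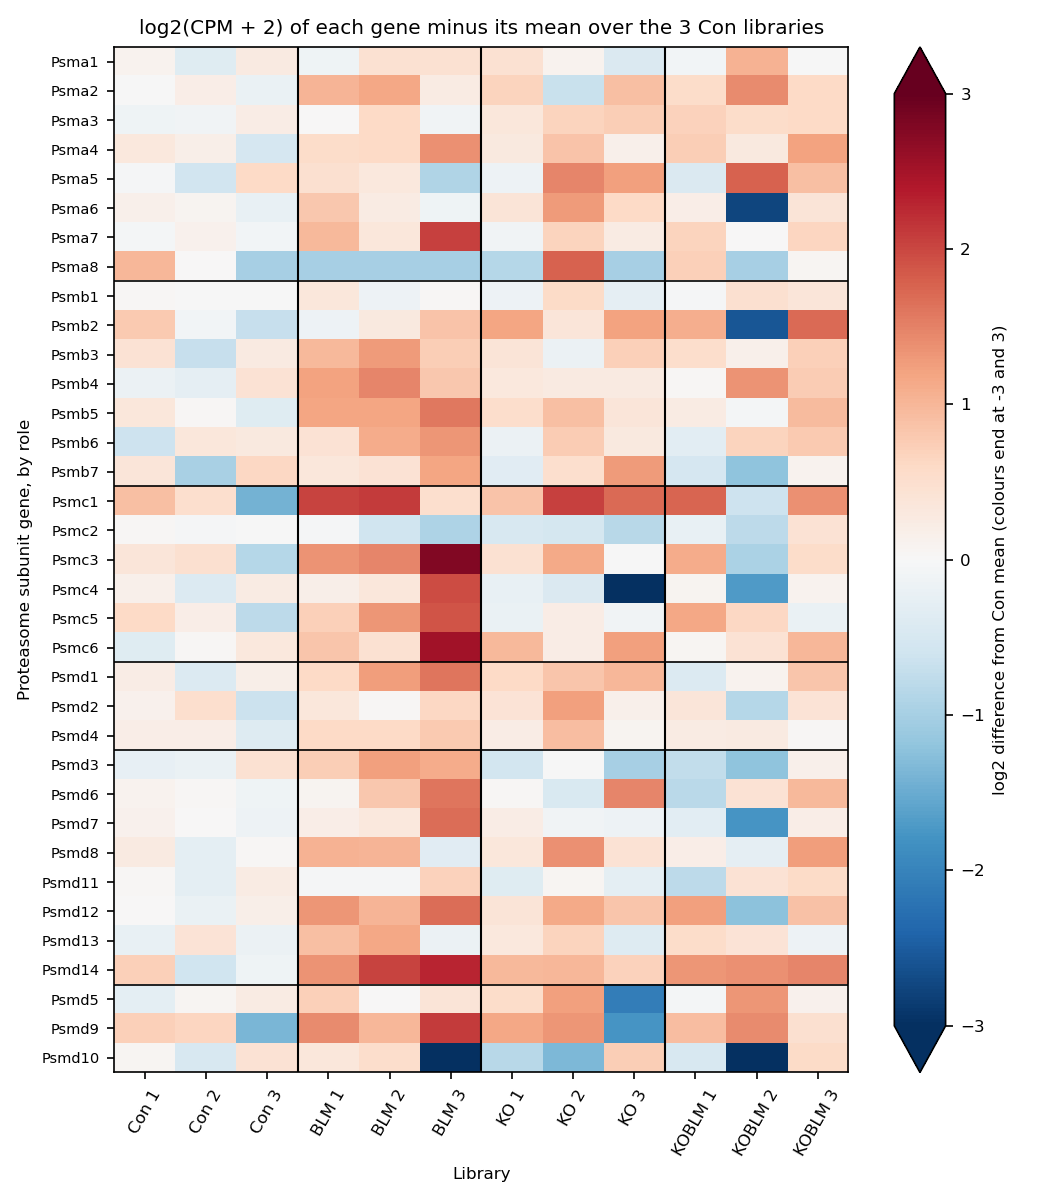
log2(CPM + 2) of the 35 tested proteasome subunit genes in each library, minus the mean of the 3 Con libraries, with genes ordered by role and horizontal lines between the roles. Red fields, above Con, prevail in the 3 BLM columns, and the lowest single fields are those of Psmc4 in KO 3 and of Psmd10 in BLM 3 and KOBLM 2.

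The comparison of BLM with Con addressed the response of the sorted cells to lung injury. Genes were called at a fold change over 1.5 with an unadjusted p under 0.05 in edgeR's quasi-likelihood test, the threshold of the paper. In BLM, 7 of the 35 proteasome subunit genes were called higher, against 2.19% of all tested genes, and 0 were called lower, against 2.08%. The log2 fold change was above 0 in 32 of 35 genes, with a median of 0.87, while it was above 0 in 47.3% of all tested genes with a median of -0.08. No gene passed after adjustment. The smallest Benjamini-Hochberg adjusted p of a proteasome subunit gene in the 5 tests below was 0.995 with edgeR, which is that of all 7 called genes here. With DESeq2, 8 proteasome subunit genes were called in BLM against Con, where 7.25% of all tested genes were called in either direction, against 4.27% with edgeR. Their smallest adjusted p with DESeq2 was 0.0611, while 114 of all tested genes were under 0.05. The 7 calls became 2 when Con 1, Con 2 or Con 3 was left out, against 2.08%, 2.73% and 2.53% of all tested genes. They became 5 without BLM 1, 4 without BLM 2 and 8 without BLM 3, against 3.55%, 3.88% and 5.45%. The median minus that of all genes moved from 0.95 to 0.52 without BLM 3.

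The call kept under the most alternatives was that of Psmd14, the deubiquitinase of the lid, which removes the ubiquitin chain as the substrate enters. It measured 68.0, 26.3 and 37.1 CPM in Con and 107, 172 and 206 CPM in BLM. The groups did not overlap, with a log2 fold change of 1.88 ± 0.59 (SE), and the call was kept under 13 of 14 alternatives, all but the adjusted p. Libraries labelled KO measured 81.6, 82.8 and 66.9 CPM and those labelled KOBLM 104, 109 and 116 CPM, ranges that touched those of Con and BLM, respectively.

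Of the ATPases, which unfold the substrate and open the gate of the core, 2 of 6 were called higher. Psmc3 measured 93.3, 101 and 38.4 CPM in Con and 185, 200.5 and 498 CPM in BLM, with a log2 fold change of 1.92 ± 0.70 (SE). All BLM libraries were above all Con libraries, and the call was kept without BLM 3, its highest library, where the log2 fold change was 1.31, and lost without Con 3, where it was 1.59. Psmc6 measured 38.1, 50.4 and 61.7 CPM in Con and 88.7, 68.7 and 289 CPM in BLM (log2 fold change 1.57 ± 0.69 SE). Without BLM 3, its highest library, the log2 fold change was 0.65 and the call was lost, as it was without any single Con library. Psmc2 went the other way: its 3 BLM libraries, at 126.5, 84.4 and 67.2 CPM, did not exceed the lowest Con library among 132, 126.5 and 129 CPM. That difference did not pass the test (log2 fold change -0.48 ± 0.55 SE).

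In the core, Psma7, Psmb4 and Psmb5 were called higher. Psmb5, which carries the chymotrypsin-like site that bortezomib and related inhibitors block, measured 93.4, 75.6 and 56.8 CPM in Con and 170, 170 and 223 CPM in BLM (log2 fold change 1.32 ± 0.54 SE). The groups did not overlap, and the call was kept without BLM 3 but lost without any one of the other 5 libraries. The other catalytic subunits did not pass the test. The caspase-like Psmb6 measured 64.6, 127 and 123 CPM in Con and 136, 220 and 256 CPM in BLM, with a log2 fold change of 0.96 ± 0.56 (SE). The trypsin-like Psmb7 measured 55.5, 21.03 and 66.7 CPM in Con and 55.2, 58.8 and 101 CPM in BLM, where the groups overlapped (0.58 ± 0.79 SE on the log2 scale). Psmb4, a non-catalytic beta subunit, measured 77.9, 73.7 and 121 CPM in Con and 209, 248 and 157 CPM in BLM (1.17 ± 0.54 SE). For Psmb4 the highest BLM library was BLM 2, the call was kept without BLM 3 and without Con 3, and it was lost without any of the other 4 libraries. Psma7 was at 188, 215 and 185 CPM in Con and at 388, 249 and 811 CPM in BLM, and its log2 fold change of 1.30 ± 0.51 (SE) was 0.70 without BLM 3, where it was not called. It was also not called without any single Con library.

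In the base, Psmd1, a large scaffold subunit, was called higher, at 116, 73.7 and 111 CPM in Con and 150, 238 and 302 CPM in BLM (log2 fold change 1.20 ± 0.54 SE), a call that only the omission of BLM 1 left in place. The ubiquitin receptor Psmd4 was at 208, 207 and 138 CPM in Con and 274, 274 and 313 CPM in BLM. Its groups did not overlap, but the change was small at 0.64 ± 0.45 (SE) on the log2 scale and did not pass the test.

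In all, the 3 BLM libraries were above the 3 Con libraries in 17 of 35 genes, or 48.6%, against 5.81% of all tested genes, and below them in 1 gene, Psmc2, against 10.2%. Besides the 7 called genes, the 17 were Psma2, Psma4, Psmb3, Psmb6, Psmc5, Psmd3, Psmd4, Psmd7, Psmd9 and Psmd12. Without BLM 3 the number was 21 of 35 against 19% of all tested genes, a background that is higher with 2 BLM libraries than with 3. Among the marker lists, 2 of 11 tested ATII markers were called lower in BLM, and without BLM 3 also 1 higher. Of 21 macrophage markers 15 had log2 fold changes below 0, with a median of -0.87 over the list. Called were 4 lower and 3 higher, the complement genes C1qa, C1qb and C1qc. Leaving out BLM 3 gave 5 macrophage markers called higher and 5 lower, with a median of -0.33. The sum of the ATII markers was 627 to 2088 CPM in Con and 466 to 713 CPM in BLM. Of 8 lymphocyte markers 7 had log2 fold changes below 0 and 2 were called lower, or 0 without BLM 3, and 6 of 7 endothelial markers were below 0 with none called. Of 10 pluripotency genes 4 passed the filter on low counts, of which 3 were called higher, or 1 without BLM 3. Tdgf1 was at 0 CPM in Con, KO and KOBLM and so passed the filter only through the BLM libraries, and Tet1 mainly so. This count is thus in part set by the filter. The part of these cell types in the proteasome values was not tested.

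**Figure D3:**
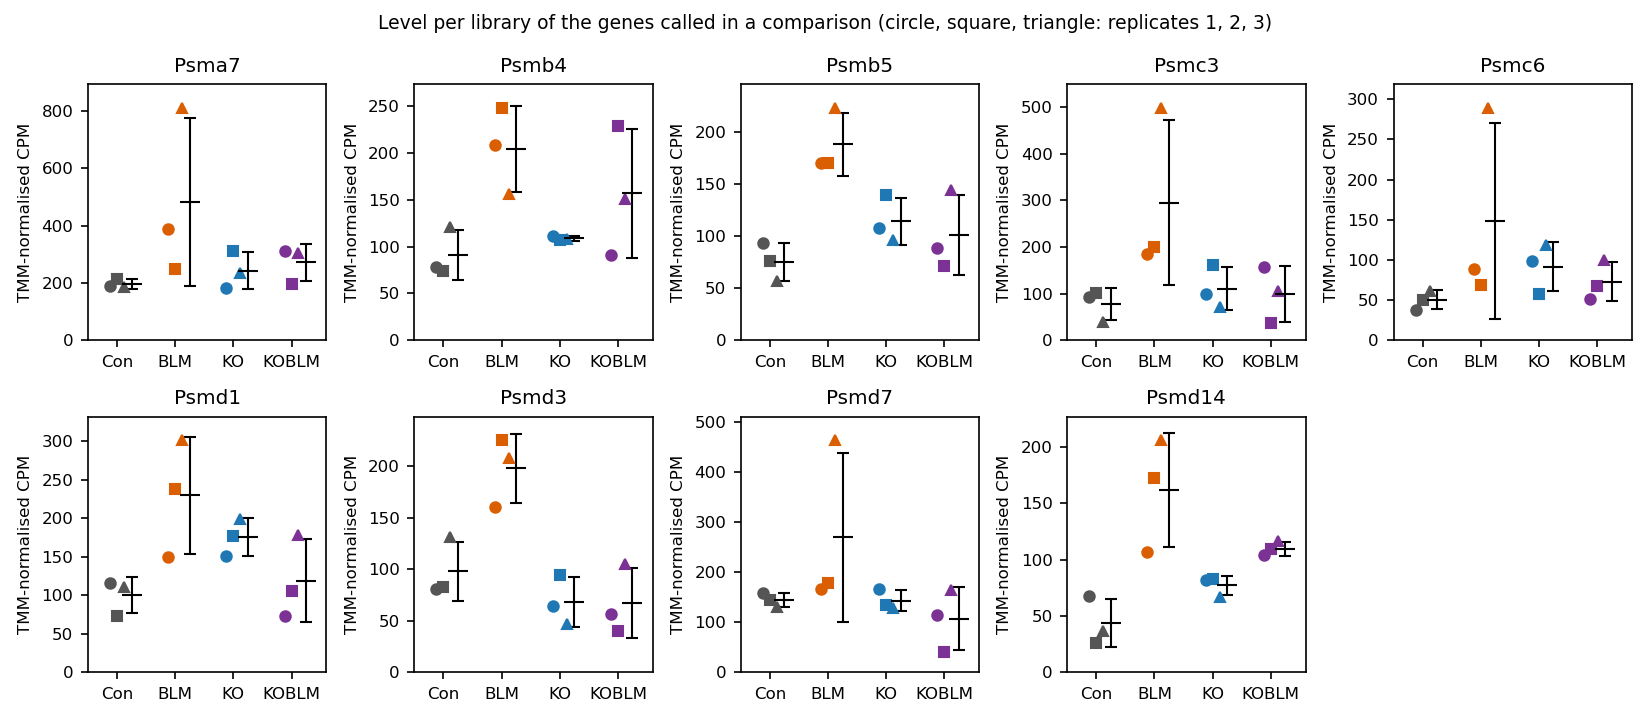
TMM-normalised CPM per library of the 9 proteasome subunit genes called in at least 1 comparison, with the 3 libraries of each group as points and the mean ± SD (n = 3) beside them. In Psma7, Psmc3, Psmc6 and Psmd7 BLM 3, the triangle, is the highest of the 12 libraries by a wide gap, and in Psmb4 and Psmd3 the highest is BLM 2, at 248 and 225 CPM.

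The comparison of KOBLM with BLM asked how the bleomycin-treated cells differed where p300 was targeted. It shares the BLM libraries with the comparison above, so that the values are given side by side and not as a second finding. In KOBLM, 3 of 35 proteasome subunit genes were called lower, against 1.78% of all tested genes, and 0 were called higher, against 181 of the 13054 tested genes. The log2 fold change was below 0 in 26 of 35 genes with a median of -0.54, against 6123 of the 13054 tested genes with a median of 0.10. The count of 3 became 1 without BLM 3 or KOBLM 1 and 0 without KOBLM 2, against 3.34%, 2.41% and 1.67% of all tested genes called in either direction. The median minus that of all genes moved from -0.63 to -0.30 without BLM 3 and -0.33 without KOBLM 1.

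Psmd3, a subunit of the lid, kept its call under 10 of 14 alternatives, more than the other two. It measured 160, 225 and 208 CPM in BLM and 56.3, 40.1 and 106 CPM in KOBLM, with a log2 fold change of -1.56 ± 0.59 (SE). The groups were apart, and the call was kept without BLM 3 and lost without BLM 2, KOBLM 1 or KOBLM 2. Psmc3 was at 185, 200.5 and 498 CPM in BLM and 156, 36.1 and 105 CPM in KOBLM (-1.57 ± 0.69 SE). Without BLM 3 its log2 fold change was -0.96 and it was not called, nor was it without KOBLM 2 or KOBLM 3. Psmd7, the partner of Psmd14 in the lid, was at 166, 179 and 464 CPM in BLM and 115, 40.6 and 165.3 CPM in KOBLM (-1.33 ± 0.61 SE). Its lowest BLM value and highest KOBLM value nearly touched, the log2 fold change was -0.69 without BLM 3 and -0.94 without KOBLM 2, and the call was lost in both cases and without KOBLM 1.

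Genes at the other end of this comparison were Psma5, at 35.7, 31.9 and 12.5 CPM in BLM and 18.1, 90.7 and 48.2 CPM in KOBLM (log2 fold change 0.97 ± 0.94 SE), and Psmb2, at 0.53 ± 1.1 (SE). Both overlapped between the groups and did not pass the test. Psmc4 had a log2 fold change of -1.40 ± 1.03 (SE) that was not called, with 272 CPM in BLM 3 and 19.8 CPM in KOBLM 2. The 3 KOBLM libraries were below the 3 BLM libraries in 8 genes, 22.9% of the 35 against 4.65% of all tested genes. These 8 were Psmb3, Psmb5, Psmb7, Psmc3, Psmc4, Psmd3, Psmd4 and Psmd7. Without BLM 3 there were 10 against 15.8%. Of 21 macrophage markers, 4 were called higher and 0 lower in this comparison, and the same numbers were called without BLM 3. The log2 fold change was above 0 in 7 of 7 endothelial markers (median 1.26, and 0.67 without BLM 3) and in 8 of 8 lymphocyte markers (median 2.83, with 6 of 8 above 0 and a median of 2.25 without BLM 3), of which none was called. All 4 tested pluripotency genes were called lower, and 0 without BLM 3, a count that the filter sets in part, as above. The part of these markers in the proteasome values was not tested.

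**Figure D4:**
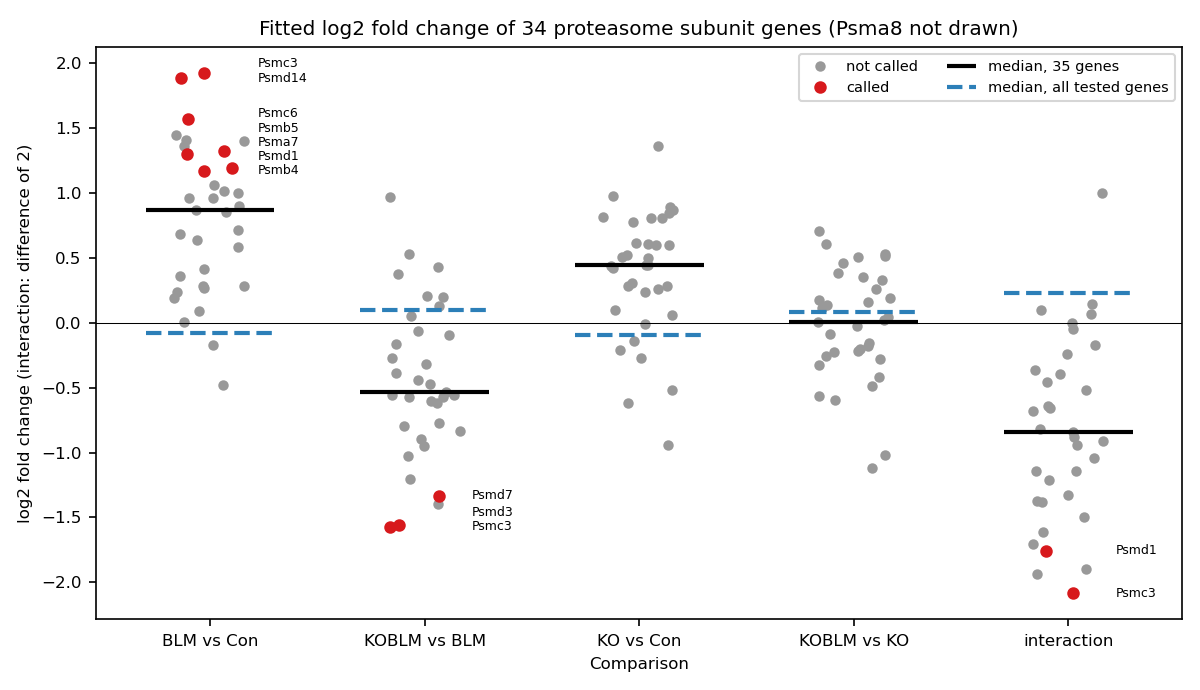
Fitted log2 fold changes of 34 proteasome subunit genes in the 4 comparisons and in the interaction, with called genes in red and named, and the medians of the 35 tested genes and of all tested genes as lines. The median of the proteasome subunit genes is 0.87 in BLM against Con, -0.54 in KOBLM against BLM and 0.00 in KOBLM against KO.

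Between PBS-treated groups, KO and Con, no proteasome subunit gene was called with edgeR, where 0 had an unadjusted p under 0.05, or with DESeq2, against 1.44% of all tested genes called with edgeR and 2.87% with DESeq2. The log2 fold change was above 0 in 28 of 35 genes, with a median of 0.45, against 44.9% of all tested genes with a median of -0.09. All 3 KO libraries were above all Con libraries in 6 genes, 17.1% of the 35 against 3.26% of all tested genes. These were Psma3, Psma6, Psmb5, Psmd1, Psmd8 and Psmd12. Psmd1 measured 151, 177 and 200 CPM in KO, above the 73.7 to 116 CPM of Con, and its log2 fold change was 0.81 ± 0.53 (SE). Psma6 measured 208, 198 and 162 CPM in Con and 247, 459 and 288 CPM in KO (0.81 ± 0.66 SE). When only the 2 groups were fitted, Psmd1 and Psma6 were the 2 proteasome subunit genes called, against 2.04% of all tested genes. The highest fitted value was that of Psmc1, at 76.0, 57.3 and 13.5 CPM in Con and 73.3, 171 and 133 CPM in KO (1.36 ± 0.80 SE), where Con 3 was low, followed by Psma5 at 0.97 and Psmb2 at 0.90. The lowest were Psmc4 at -0.94, with 1.16 CPM in KO 3 beside 49.8 and 58.3 CPM in the other two, Psmc2 at -0.62 and Psmd3 at -0.52. None of these passed the test. Endothelial markers had log2 fold changes below 0 in 7 of 7 genes, with a median of -1.74, and ATII markers in 9 of 11, with a median of -1.09, while of the markers 1, of macrophages, was called, and higher. Their part in the proteasome values was not tested. The Con libraries are shared with the comparison of BLM and Con.

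Bleomycin gave no common direction in the libraries labelled KO. In KOBLM against KO, 0 of 35 genes were called with edgeR, where 0 had an unadjusted p under 0.05, or with DESeq2, against 1.69% of all tested genes with edgeR and 3.52% with DESeq2. The median log2 fold change was 0.00, with 18 of 35 genes above 0, against 53.8% of all tested genes. The highest were Psmc5 at 0.71, Psmc4 at 0.61 and Psmb4 at 0.53, and the lowest were Psmb7 at -1.12 and Psma6 at -1.02. Psma6 was the 1 gene with all KOBLM libraries below all KO libraries, against 3.02% of all tested genes, at 218, 26.4 and 246 CPM, of which KOBLM 2 was far below the rest. Psmd14 was the 1 gene with all KOBLM libraries above all KO libraries, against 3.85% of all tested genes, with a log2 fold change of 0.51 ± 0.58 (SE) that did not pass the test, against 1.88 ± 0.59 (SE) in BLM against Con.

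A difference in the bleomycin effect between the genotypes was fitted as an interaction term, the log2 fold change of KOBLM against KO minus that of BLM against Con. In 30 of 35 genes this difference was below 0, with a median of -0.84, against 5829 of the 13054 tested genes with a median of 0.23. Of the 35, 2 genes were called lower, against 1.31% of all tested genes. The interaction of Psmc3 was -2.08 ± 0.96 (SE), from 1.92 in BLM against Con and -0.16 in KOBLM against KO. That of Psmd1 was -1.76 ± 0.76 (SE), from 1.20 and -0.56. Neither passed after adjustment. Each of the 2 calls was lost without any one of Con 1, Con 2, Con 3, KO 1, KO 2 and KOBLM 2. The count was then 0, against 2.36% to 4.82% of all tested genes called in either direction. It was 1 without KO 3, KOBLM 1 or KOBLM 3, against 3%, 2.59% and 3.34% of all tested genes. Without BLM 3 it was 3, against 4.63%, and Psmc3 was not called at -1.47. Psmc1 at -1.93 and Psmc6 at -1.90 were lower than Psmd1 and were not called. At the high end were Psmc2, with 0.997 ± 0.79 (SE), and Psmd11, with 0.15. Among the markers, the interaction was above 0 in 7 of 7 endothelial genes (median 2.96, and 2.38 without BLM 3), of which 1 was called. It was also above 0 in 8 of 8 lymphocyte genes (median 3.04, with 7 of 8 above 0 and a median of 2.46 without BLM 3). Of the macrophage markers 2 were called higher and 3 lower, or 4 higher and 3 lower without BLM 3. The part of these markers in the proteasome values was not tested.

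The interferon-inducible subunits Psmb8, Psmb9 and Psmb10, which replace the constitutive catalytic subunits in the immunoproteasome and shape peptides for antigen presentation, did not share the direction of the other genes in BLM. None was called in any comparison. Psmb8 measured 215, 221 and 238 CPM in Con and 167, 198 and 0 CPM in BLM, with a log2 fold change of -0.89 ± 1.27 (SE). Psmb9 measured 47.2, 33.5 and 52.8 CPM in Con and 27.1, 41.4 and 13.6 CPM in BLM, and Psmb10 72.2, 90.8 and 148 CPM in Con and 65.3, 68.3 and 0 CPM in BLM. BLM 3 thus had 0 counts of Psmb8 and Psmb10 but 189 counts of Psmb9, beside its macrophage marker sum of 1231 CPM. The part of its cell content in this was not tested. In KO and KOBLM, Psmb8 lay between 148 and 350 CPM and Psmb10 between 85.8 and 180.5 CPM.

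Ratios within a library compared each inducible subunit with the constitutive one it replaces, as log2 of the ratio of the counts, each plus 1, which sets the value where a count is 0, as for Psmb8 and Psmb10 in BLM 3. Psmb8 to Psmb5 was 1.20, 1.54 and 2.07 in Con and -0.03, 0.22 and -11.6 in BLM. Psmb9 to Psmb6 was -0.45, -1.92 and -1.22 in Con and -2.32, -2.40 and -4.23 in BLM, and Psmb10 to Psmb7 was 0.38, 2.10 and 1.15 in Con and 0.24, 0.22 and -10.5 in BLM. In each of the 3 pairs, every BLM library was below every Con library. The difference of the means was -1.51, -1.17 and -0.98 for these pairs when BLM 3 was left out. A two-sided exact permutation test of 3 against 3 libraries cannot give a p under 0.1, and that value was reached for all 3 pairs (Benjamini-Hochberg adjusted p = 0.24 over 12 tests). KOBLM against BLM, which shares the BLM libraries, also reached 0.1 in this exact test for Psmb8 to Psmb5 and Psmb10 to Psmb7 (adjusted p = 0.24), with KOBLM higher by 0.77 and 1.70 when BLM 3 was left out. For Psmb9 to Psmb6 KOBLM was 0.46 above BLM, or -0.17 without BLM 3 (exact permutation p = 0.6). KO and Con differed by -0.42 for Psmb8 to Psmb5, -0.17 for Psmb9 to Psmb6 and -0.25 for Psmb10 to Psmb7, within the spread of the libraries. KOBLM minus KO was -0.32, -1.16 and 0.97 for the same pairs, where the groups overlapped.

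**Figure D5:**
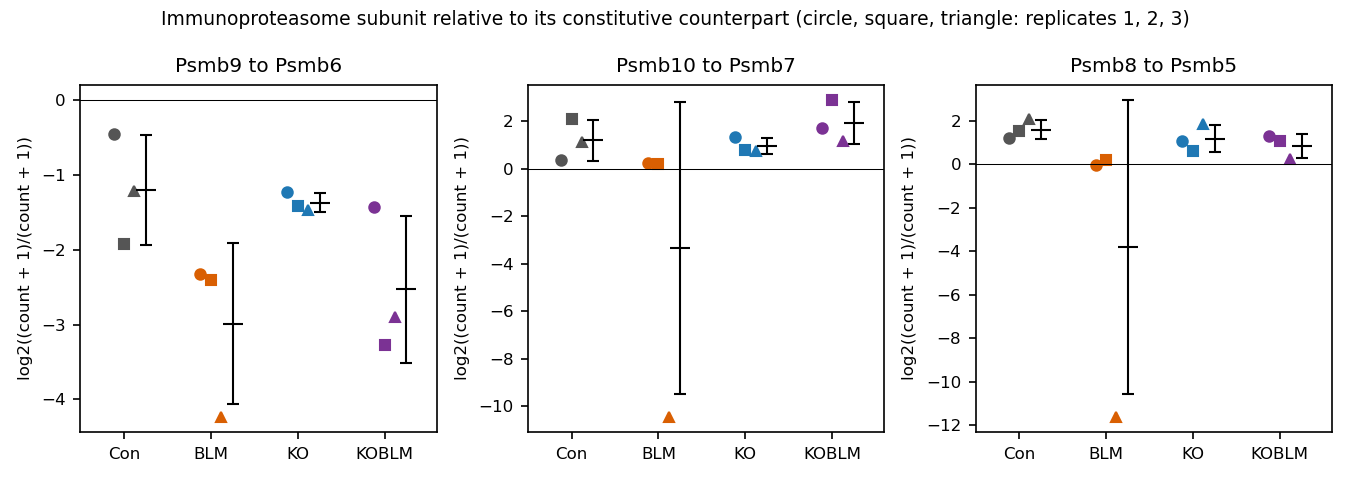
log2 ratio of the counts, each plus 1, of an immunoproteasome subunit to its constitutive counterpart in each library, with the mean ± SD (n = 3) beside the points. All BLM libraries are below all Con libraries in the 3 panels, and BLM 3, the triangle, lies at -10.5 and -11.6 in the panels of Psmb10 and Psmb8.

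Other genes of the pathway were read from lists. In the list of ubiquitin and the ubiquitin-activating enzymes, Rps27a, which encodes ubiquitin fused to a ribosomal protein, was among the genes called, and no count over that list is given. It measured 188, 162 and 357 CPM in Con, 532, 552 and 960 CPM in BLM, 230, 191 and 246 CPM in KO and 213, 252 and 230 CPM in KOBLM. All 3 BLM libraries were above every library of the other groups. Rps27a was called higher in BLM against Con (log2 fold change 1.53 ± 0.47 SE), lower in KOBLM against BLM (-1.56 ± 0.47 SE) and lower in the interaction (-1.47 ± 0.66 SE).

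No gene of the remaining pathway lists was called in a comparison, though without BLM 3 Shfm1 was called higher (0.73 ± 0.34 SE on the log2 scale) and Ubqln2 lower (-1.60 ± 0.70 SE) in BLM against Con, and Shfm1 lower in the interaction (-0.97 ± 0.46 SE). In BLM against Con the log2 fold change was above 0 in 4 of 5 assembly chaperones of the core, with a median of 0.40, or 0.25 without BLM 3, among them Pomp, the maturation factor of the beta ring, at 0.35 ± 0.49 (SE). It was above 0 in 1 of 5 activators and inhibitors, with a median of -0.28, and in 2 of 5 without BLM 3. Psme1 and Psme2, which form the interferon-inducible cap, had log2 fold changes of -0.28 ± 0.67 and -1.36 ± 0.77 (SE). Without BLM 3 these were 0.21 ± 0.41 and -0.90 ± 0.59 (SE), so that the sign for Psme1 rested on that library. Of 6 other proteins bound to the proteasome, 2 were above 0, or 3 without BLM 3, and the deubiquitinase Usp14 was at 138, 102 and 230 CPM in Con and 85.1, 91.2 and 63.1 CPM in BLM, below Con in all 3 libraries without passing the test (-0.97 ± 0.57 SE). Of 10 shuttle and p97 genes, 5 were above 0, or 3 without BLM 3, with Vcp, the p97 segregase, at 0.11 ± 0.44 (SE), or -0.15 ± 0.37 (SE) without it. The regulators of subunit transcription were split, 3 of 6 above 0. Nfe2l1 was at 109, 151 and 77.7 CPM in Con and 86.8, 129 and 228 CPM in BLM, Nfe2l2 at 310.4, 352 and 215 CPM and 177, 178 and 268 CPM, and the protease Ddi2, which cleaves the NFE2L1 protein, at 14.3, 26.0 and 9.99 CPM and 47.5, 47.7 and 74.2 CPM. For Nfe2l1, BLM 3 was the only BLM library above the Con range. Ddi2 was above Con in all 3 BLM libraries (1.75 ± 1.46 SE), and none of these regulators passed the test.

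The 36 genes lie on 16 chromosomes and so are not 1 cluster in the genome. Psmd14 is on the plus strand of chr2:61711694-61800376 and Psmc3 on the plus strand of chr2:91054009-91066369 (GRCm38, GENCODE M21), and Psmb5 is on the minus strand of chr14:54614119-54618022. Exons of Psmc3 overlap exons of Slc39a13 on the opposite strand, and those of Psmd1 overlap Htr2b there, one of 8 genes with such a neighbour, and whether the counting used the strand is not given in the sources used here. Named pseudogenes of Psmb5, Psmb6 and Psmb7 are annotated, and reads could be shared with them.

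Promoters were searched because most of these genes were higher in BLM than in Con and because the NFE2L factors bind the antioxidant response element, whose core was searched as TGACNNNGC, with N for any base, on both strands, beside the CCAAT box, searched as CCAAT. RefSeq promoters on GRCm38.p6, from 250 bases before to 50 bases after a start site, were in the table for 29 of the 36 genes. The element core was found in 5 of the 29 genes, 17.2% against 14.0% of the 27025 genes in the table, and CCAAT in 12, 41.4% against 41.1%. These letters were about as frequent in the proteasome subunit genes as elsewhere. The 5 genes with the core were Psmb5 and Psmc6, both called higher in BLM, and Psmb6, Psmd9 and Psmd12, which were above Con in all BLM libraries without being called. Of the 6 called genes in the table, Psmb5 and Psmc6 held the core and Psma7, Psmd1, Psmb4 and Psmd14 did not. The match began 47 bases before the RefSeq start in Psmb5, 9 in Psmb6, 31 in Psmd9, 227 in Psmc6 and 247 in Psmd12, on the gene's strand in the first 3 and on the other strand in Psmc6 and Psmd12. The stretches before the RefSeq start, ended where an annotated exon begins, are shown for these 5 genes with the core in capitals. That of Psmd9 lies inside the longer span that GENCODE annotates for this gene, chr5:123169413-123250131, outside its exons. Sequences run 5′ to 3′ on the strand of the gene. A further stretch is shown for Psmd14, the proteasome subunit gene with the smallest p in BLM against Con. The CCAAT box before its start, which is read on the other strand, is in capitals. Matches at positions 5 and 8 counted from the start lie outside the stretch.
Psmb5, chr14:54618023-54618245, minus strand: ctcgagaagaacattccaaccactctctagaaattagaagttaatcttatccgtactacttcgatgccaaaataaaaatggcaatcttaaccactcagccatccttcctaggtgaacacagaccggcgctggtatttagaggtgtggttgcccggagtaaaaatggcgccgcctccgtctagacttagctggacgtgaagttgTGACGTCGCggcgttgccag
Psmb6, chr11:70525107-70525356, plus strand: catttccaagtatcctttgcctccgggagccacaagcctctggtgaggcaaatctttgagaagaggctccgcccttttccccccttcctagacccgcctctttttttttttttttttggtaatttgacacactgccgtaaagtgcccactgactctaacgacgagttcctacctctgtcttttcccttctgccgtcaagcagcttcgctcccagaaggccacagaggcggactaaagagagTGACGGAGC
Psmc6, chr14:45329574-45329787, plus strand: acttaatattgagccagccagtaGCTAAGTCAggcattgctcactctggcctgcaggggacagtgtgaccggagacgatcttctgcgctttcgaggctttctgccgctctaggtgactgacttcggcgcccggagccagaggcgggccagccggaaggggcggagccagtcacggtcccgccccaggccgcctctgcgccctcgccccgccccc
Psmd9, chr5:123227940-123228189, plus strand: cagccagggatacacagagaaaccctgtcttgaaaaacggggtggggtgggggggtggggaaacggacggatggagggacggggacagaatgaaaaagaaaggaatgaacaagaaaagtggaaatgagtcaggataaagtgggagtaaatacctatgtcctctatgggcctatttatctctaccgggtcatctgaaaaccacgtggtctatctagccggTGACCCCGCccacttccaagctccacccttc
Psmd12, chr11:107479278-107479483, plus strand: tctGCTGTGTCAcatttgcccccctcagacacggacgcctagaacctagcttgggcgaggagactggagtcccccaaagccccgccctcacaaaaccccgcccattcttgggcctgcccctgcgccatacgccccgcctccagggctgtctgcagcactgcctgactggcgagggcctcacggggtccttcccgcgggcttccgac
Psmd14, chr2:61711444-61711693, plus strand: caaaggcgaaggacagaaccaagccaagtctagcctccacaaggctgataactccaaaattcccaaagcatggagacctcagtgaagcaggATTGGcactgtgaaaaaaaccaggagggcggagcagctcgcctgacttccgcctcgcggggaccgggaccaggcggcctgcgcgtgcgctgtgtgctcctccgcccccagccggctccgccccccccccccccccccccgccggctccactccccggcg

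A match to these letters is a description of the sequence, and binding to them was not measured here.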

How the data were processed

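RNA from sorted CD74-positive EpCAM-positive lung cells of 12 mice, 1 library per mouse, was sequenced after QuantSeq 3′ library preparation. The authors deposited raw counts per gene symbol, without normalization. The submitters' processing notes name Bowtie2, edgeR and mm10, and versions, annotation and counting settings are not given in the sources used here. Counts of 35 repeated symbols were summed. Low counts were removed by group with edgeR 4.0.16 (its filterByExpr function, at least 10 counts and 15 in all), the rest scaled by TMM and fitted with a quasi-likelihood model of the 4 groups (8 residual degrees of freedom) over all 13054 genes. Tests were two-sided, and p-values were adjusted by Benjamini-Hochberg over all tested genes. The common dispersion was 2.08. Depth was 7005005 to 11153154 counts per library, which limits genes near the floor of 3 counts. The edgeR steps were run on simulated counts with known changes, and their recovery at a dispersion like that of these data is not reported here. DESeq2 1.42.0, other scalings, no filter, a block and the omission of libraries were alternatives. The genes and lists were chosen with earlier results of these data known. Genes named were those called, the 3 highest and 3 lowest log2 fold changes of each comparison, the catalytic subunits and their inducible counterparts, Psmd14, Psmd4, Psma8, Psmb11, the extremes of level and of spread, and called or abundant genes of the lists, of which some are not reported here. C1qa, C1qb, C1qc, Ddi2 and Psme2, and the genes counted as not overlapping, were named after their values were seen. R 4.3.3, Python 3.11.15 and scipy 1.17.1 were used.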

Additional observations from a re-analysis of the deposited data

Results flagged for a closer look

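The effect of bleomycin differed between the genotypes in 2 proteasome subunit genes by the interaction test at an unadjusted p under 0.05 and a fold over 1.5, or 2 of 35, both lower, against 1.31% of all tested genes called lower and 2.82% in either direction. Neither passed after adjustment, and both calls were lost without any one of Con 1, Con 2, Con 3, KO 1, KO 2 and KOBLM 2. The interaction log2 difference was -2.08 ± 0.96 (SE) for Psmc3 and -1.76 ± 0.76 (SE) for Psmd1. Psmc3 was at 93.3, 101 and 38.4 CPM in Con and at 185, 200.5 and 498 CPM in BLM. The libraries labelled KO had 99.6, 161 and 71.1 CPM and those labelled KOBLM 156, 36.1 and 105 CPM. Psmd1 was at 116, 73.7 and 111 CPM in Con, 150, 238 and 302 CPM in BLM, 151, 177 and 200 CPM under KO and 73.0, 106 and 178 CPM under KOBLM. Groups of 3 libraries were too small for a test of single outlying libraries.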

How the results depend on the processing

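The number of proteasome subunit genes called in BLM against Con, 7 as reported, was 3 with no filter on low counts, 2 with the replicate number as a block, 0 at an adjusted p under 0.05 and 4 when only these groups were fitted. Of all tested genes, 4.41%, 3.02%, 0% and 3.28% were called under these settings, against 4.27% as reported. It was 11 with the 2 libraries per group with the most genes detected, an alternative chosen after seeing the data that leaves out Con 3, BLM 3, KO 3 and KOBLM 2. Of these, 10 were higher and 1, Psma8, lower. There, 9.9% of all tested genes were called, and the median minus that of all tested genes was 0.63, against 0.95 as reported. In KOBLM against BLM, 3 as reported, the number was 1 with the replicate block, 0 at an adjusted p and 1 with only these groups. Of all tested genes, 2.01%, 0% and 1.3% were called under these settings, against 3.16% as reported. The median minus that of all tested genes, -0.63 as reported, was -0.90 with the block and -0.27 with the 2 libraries per group. In KO against Con, 0 as reported, the number was 2 with only these groups, where 2.04% of all tested genes were called, against 1.44% as reported. In the interaction, 2 as reported, the number was 1 with no filter, 1 with the block, 0 at an adjusted p, 4 with DESeq2 and 1 with the 2 libraries per group. Of all tested genes, 4.04%, 1.85%, 0%, 4.79% and 6.22% were called under these settings, against 2.82% as reported. The median minus that of all tested genes, -1.07 as reported, was -1.41 with the block. The cause was not tested. Leaving out single libraries gave 2 to 8 calls in BLM against Con, 0 to 3 in KOBLM against BLM and 0 to 3 in the interaction. Of all tested genes, 2.08% to 5.45%, 1.67% to 3.34% and 2.36% to 4.82%, respectively, were then called. The median minus that of all tested genes was then 0.52 to 1.22 in BLM against Con and -0.75 to -0.30 in KOBLM against BLM. It was 0.39 to 0.72 in KO against Con, -0.33 to 0.025 in KOBLM against KO and -1.40 to -0.78 in the interaction. No called gene changed direction under any alternative. Libraries with the same number did not deviate together more than others, with correlations from -0.11 to 0.10, against -0.10 to 0.15 for unlike numbers. The highest was that of KO 3 with KOBLM 2. Whether libraries share a batch that does not follow the number was not tested. Depth limits Psma8 and Psmb11, while each of the other 34 genes had 2350 counts or more over the 12 libraries, and the common dispersion over all tested genes was 2.08.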
